A study of Mus musculus with 6 samples.

Results

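In mouse liver RNA, 9 genes with roles at the centrosome, in cell division, in DNA repair or in meiosis were followed: Cep85, Sfi1, Eml5, Aurka, Ccna2, Cenpu, Rad9b, Eme1 and Sycp3. They are the 9 rows of the deposited gene table, of 29981 in all and 13807 above 0 in some library, whose name is one of these symbols. They had been selected on their measured values, which were high in the livers lacking Abca1, so their difference between the groups is given below as a description and not as a test. The study compared 2 groups of C57BL/6 mice. In the first, labelled HSKO (n = 3), hepatocytes carried a deletion of Abca1, the cholesterol and phospholipid transporter, made by a Cre recombinase under the Albumin promoter, which is active in hepatocytes and leaves the other liver cells with their Abca1. The second group, labelled WT (n = 3), consisted of floxed controls, so both groups carried floxed Abca1 on the same strain. All mice went without food for part of the day before the livers were taken. The sources used here give no age or sex and do not say whether a library came from 1 animal, so the spread between libraries may be technical.

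The centrosome organises microtubules and, once duplicated, sets up the poles of the mitotic spindle. Genes such as Aurka and Ccna2 are transcribed in S phase, G2 and mitosis and their transcripts are lost when cells leave the cycle. In adult liver nearly all hepatocytes are out of the cycle, although many are polyploid and the tissue can re-enter it after injury. Homologous recombination and the checkpoint clamp act mostly in replicating cells, and synaptonemal complex genes such as Sycp3 are known from meiotic cells of testis and ovary. Many promoters of cell-cycle genes hold CCAAT boxes and a cell cycle homology region (CHR) close to the start of transcription.

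Promoter sequences are shown for 3 of the 9 genes: Aurka as the textbook cell-cycle promoter, Cenpu as a kinetochore gene, and Cep85 as the gene with the highest level. Each is the 300 bases from 250 before the annotated start, 5′ to 3′ on the gene's own strand, from RefSeq on GRCm38.p6. Capitals mark the letters CCAAT or TTTGAA, or their reverse complements. The windows are chr2:172370521-172370820 on the minus strand for Aurka, chr8:46551819-46552118 on the plus strand for Cenpu and chr4:134187036-134187335 on the minus strand for Cep85.
Aurka: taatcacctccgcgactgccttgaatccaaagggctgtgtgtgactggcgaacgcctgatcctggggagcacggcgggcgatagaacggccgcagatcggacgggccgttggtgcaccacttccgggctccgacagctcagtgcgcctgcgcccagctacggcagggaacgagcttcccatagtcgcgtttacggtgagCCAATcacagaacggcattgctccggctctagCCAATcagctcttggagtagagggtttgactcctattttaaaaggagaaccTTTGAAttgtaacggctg
Cenpu: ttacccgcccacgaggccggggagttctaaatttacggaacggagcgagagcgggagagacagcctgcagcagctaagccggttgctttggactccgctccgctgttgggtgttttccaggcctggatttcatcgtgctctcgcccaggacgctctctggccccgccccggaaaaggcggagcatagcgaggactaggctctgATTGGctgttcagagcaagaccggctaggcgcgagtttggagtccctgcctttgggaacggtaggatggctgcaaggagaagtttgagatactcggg
Cep85: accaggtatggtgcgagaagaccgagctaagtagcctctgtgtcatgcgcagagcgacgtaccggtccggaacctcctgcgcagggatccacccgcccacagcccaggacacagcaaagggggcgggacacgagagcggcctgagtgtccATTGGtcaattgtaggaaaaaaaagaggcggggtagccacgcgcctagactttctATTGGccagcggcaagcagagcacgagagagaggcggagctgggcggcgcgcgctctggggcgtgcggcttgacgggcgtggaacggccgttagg

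Counting the start as base 0, the Aurka window held CCAAT at -51 and -19 and TTTGAA, the letters of a CHR, at 32. Cenpu held 1 CCAAT at -47 and Cep85 held it at -100 and -45, all on the opposite strand. RefSeq windows matched 7 of the 9 genes, with Ccna2 and Sfi1 unmatched. Searched on both strands, CCAAT was found in 5 of the 7, with Rad9b and Sycp3 besides those printed, and TTTGAA in Aurka and Eme1. Both motifs together were found in the Aurka window alone of the 7. Over all 32851 promoter windows of the same length, 37.4% held CCAAT, 17.9% held TTTGAA and 6.95% held both. The 7 windows thus did not share a motif, and Eml5 held neither of these. An E2F site, one of TTTCCCGC, TTTCGCGC, TTTGCCGC and TTTGGCGC, was found in the Sycp3 window and in 2.26% of all windows. A match describes letters in this window only.

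The libraries were shallow and differed in composition. They held 838637 to 933319 recovered reads in WT and 631020 to 702013 in HSKO, of which the row BC071253 took 43.1% to 52.9% and 46.2% to 57.8%. Values are reads over the size factor of the library, which was 1.31 to 1.77 for WT and 0.684 to 0.752 for HSKO, so that 1 read counted for more in an HSKO library. Abca1 had 20, 36 and 34 reads in WT replicates 1, 2 and 3 and 2, 1 and 2 in the HSKO replicates, so its row was low in the libraries labelled as deleted. Of 2750 rows with a mean of at least 10, limma called 783 higher and 320 lower in HSKO at an adjusted p below 0.05. All 17 hepatocyte markers were detected, with 6 called lower and 0 higher, and their summed value was 16202 to 18614 in WT and 9533 to 14748 in HSKO. In bulk tissue, fewer cells of a type and less RNA per cell cannot be told apart.

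All 9 genes were above the minimum mean in WT alone, were called higher by limma in HSKO and had HSKO values that did not overlap those of WT. The same call was made for 28.5% of the rows tested, and 31.4% had groups that did not overlap with HSKO higher. Since this contrast chose the genes, nothing is read from their count. Ratios of the group means lay between 2.75 for Eml5 and 4.77 for Rad9b, with a median log2 fold change of 1.64 on the scale of log2(value + 1).

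**Figure D1:**
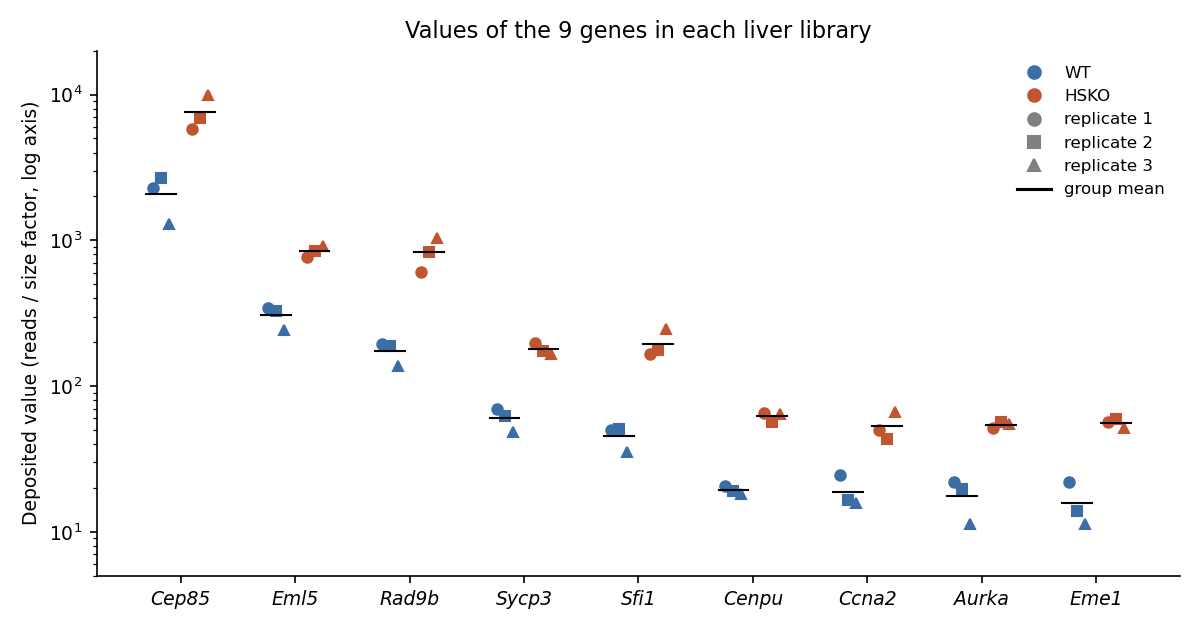
Deposited values (reads divided by size factor, log axis) of the 9 genes in each of the 3 WT and 3 HSKO libraries, ordered by WT mean, with symbols for replicates and a bar for the group mean. For each gene the 3 HSKO points lie above the 3 WT points, and WT replicate 3 is the lowest WT point.

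Cep85 encodes a centrosomal protein that restrains the kinase Nek2 and so acts on centrosome cohesion. Its row (chr4:134129858-134187112, minus strand) was at 2299, 2661 and 1296 in WT replicates 1, 2 and 3 and at 5800, 6908 and 9949 in the HSKO replicates. WT averaged 2086 ± 707 and HSKO 7552 ± 2148 (SD, n = 3; log2 fold change 1.88, SE 0.29). WT replicate 3 was lowest and HSKO replicate 3 highest, and the groups did not overlap. In raw reads, the row held 3013, 4044 and 2298 in WT against 3968, 4751 and 7481, so the order of the groups changed for WT replicate 2 against HSKO replicate 1 before scaling. Cep85 reads came to 52.1%, 35.3% and 17.7% of the reads of Alb, the albumin gene, in the WT replicates and to 205%, 184% and 191% in the HSKO replicates.

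Sfi1 encodes a centrin-binding protein of the centrosome. Its row (chr11:3131850-3193463, minus strand) was at 49.6, 50.7 and 35.5 in WT and at 167, 176 and 245 in HSKO, from 63 to 77 and 114 to 184 reads. The means were 45.3 ± 8.45 and 196 ± 42.6 (SD, n = 3; log2 fold change 2.08, SE 0.25). Eml5 belongs to the EMAP family of microtubule-binding proteins. It was at 344, 330 and 244 in WT and 767, 845 and 908 in HSKO (chr12:98786805-98901484, minus strand). Its means were 306 ± 54.0 and 840 ± 70.6 (SD, n = 3; log2 fold change 1.47, SE 0.23), the smallest ratio of means of the 9. Both genes had their highest HSKO value in replicate 3, and neither had groups that overlapped.

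The 3 genes of cell division lay at similar low levels. Aurka, the mitotic kinase that matures centrosomes and builds the spindle, was at 22.1, 19.7 and 11.3 in WT and 51.2, 56.7 and 54.5 in HSKO (chr2:172356190-172370535, minus strand). These values rest on 29, 30 and 20 reads in WT and 35, 39 and 41 in HSKO. Its means were 17.7 ± 5.70 and 54.1 ± 2.80 (SD, n = 3; log2 fold change 1.61, SE 0.29). The HSKO libraries were close together and the WT spread came from replicate 3.

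Ccna2, cyclin A, which drives S phase and entry into mitosis with Cdk2 and Cdk1, was at 24.4, 16.5 and 15.8 in WT and 49.7, 43.6 and 66.5 in HSKO (chr3:36564865-36572150, minus strand). Reads numbered 32, 25 and 28 in WT against 34, 30 and 50, so the raw ranges overlapped while the scaled ones did not. Its means were 18.9 ± 4.80 and 53.3 ± 11.8 (SD, n = 3; log2 fold change 1.45, SE 0.28). Cenpu, a subunit of the constitutive centromere-associated network, was at 20.6, 19.1 and 18.0 in WT and 65.8, 56.7 and 63.8 in HSKO (chr8:46552028-46580007, plus strand). Its means were 19.2 ± 1.29 and 62.1 ± 4.77 (SD, n = 3; log2 fold change 1.64, SE 0.25), the tightest WT values of the 9.

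Rad9b, a paralogue of the clamp subunit Rad9a in the 9-1-1 checkpoint complex, had the largest fold. It was at 195, 188 and 137 in WT and at 609, 832 and 1041 in HSKO (chr5:122323223-122354233, minus strand), with means of 173 ± 31.7 and 828 ± 216 (SD, n = 3; log2 fold change 2.23, SE 0.25). HSKO replicate 3 was highest and HSKO replicate 1 lowest, still far above WT. Before scaling, WT had 256, 285 and 243 reads and HSKO 417, 572 and 783. Eme1 forms with Mus81 an endonuclease that cuts branched recombination and replication intermediates. It was at 22.1, 13.8 and 11.3 in WT and 57.0, 59.6 and 51.9 in HSKO (chr11:94644996-94653964, minus strand). Its means were 15.7 ± 5.68 and 56.2 ± 3.95 (SD, n = 3; log2 fold change 1.82, SE 0.29), from 20 to 29 reads in WT and 39 to 41 in HSKO.

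Sycp3, a protein of the lateral elements of the synaptonemal complex, was at 69.4, 62.5 and 48.5 in WT and 197, 173 and 166 in HSKO (chr10:88459569-88473236, plus strand). Its means were 60.2 ± 10.7 and 179 ± 16.3 (SD, n = 3; log2 fold change 1.57, SE 0.24). All libraries of both groups had reads, 86 to 95 in WT and 119 to 135 in HSKO. Over the 9 genes the ratio of summed raw HSKO to WT reads lay between 1.29 for Eml5 and 2.26 for Rad9b, although the HSKO libraries held fewer reads. Outside BC071253, the 9 genes together took 0.676% to 1.01% of reads in WT and 1.93% to 2.72% in HSKO, most of it from Cep85.

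In the deposited values the 9 genes had their lowest WT library in common. WT replicate 3 was the lowest of the WT libraries for 9 of 9 genes, against 46.8% of all rows tested. Replicate 1 was the highest for 7 and replicate 2 for Cep85 and Sfi1. The coefficient of variation in WT was 6.68% for Cenpu, 17.7% for Sycp3 and Eml5, 32.2% for Aurka, 33.9% for Cep85 and 36.1% for Eme1, and its median over rows tested was 22.0%. The highest WT value was 1.14 times the lowest for Cenpu and 2.05 times for Cep85. Which library was lowest depended on scaling, and WT replicate 3 had the largest size factor, 1.77. As a share of reads outside BC071253, WT replicate 3 stayed lowest of WT for Cep85, Sfi1, Aurka, Rad9b, Sycp3 and Eml5. In these shares WT replicate 2 was lowest for Ccna2 and Eme1, and WT replicate 3 was highest for Cenpu. Cenpu had 27, 29 and 32 reads in WT replicates 1, 2 and 3.

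Measured against the deposited size factors, the spread within WT beyond counting noise differed between the genes. A chi-square per degree of freedom of the WT reads against the size factors, which is near 1 where libraries differ by counting error only, was 0.129 for Cenpu, 1.77 for Ccna2, 2.63 for Sfi1 and between 3.02 and 3.06 for Aurka, Sycp3 and Eme1. It was 9.50 for Rad9b, 15.6 for Eml5 and 407 for Cep85, beside a median of 1.84 over rows tested. With these size factors, Cep85, Eml5 and Rad9b thus varied between WT libraries beyond counting error. For Cenpu and Ccna2 the 2 degrees of freedom show little beyond counting error. The chi-square takes the size factors as exact, and that of WT replicate 3 was the largest. Rad9b had 256, 285 and 243 reads and Eml5 451, 501 and 433 in WT replicates 1, 2 and 3. Those libraries held 419807, 507874 and 476813 reads outside BC071253. The chi-square was not computed with another scaling, so the part of scaling in this excess was not tested. Without 1 library at a time, the log2 fold change of Cep85 lay between 1.57 and 2.09 and that of Rad9b between 2.05 and 2.44.

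Levels of different genes were compared per kilobase of the longest coding transcript in GENCODE M21. In WT, Cep85 was at 536 per kilobase, rank 24 of the 12064 rows with a length and a value above 0, and in HSKO it was at 1940, rank 10. Alb was at 3159 per kilobase in WT, rank 4, and 1933 in HSKO, rank 11. Per kilobase, the Cep85 row was therefore level with the Alb row in the HSKO libraries, where the mean of Alb was below that in WT. The annotation used in counting is not given, so its lengths may differ from these. Where the reads lay within the Cep85 row was not seen. Rad9b was at 73.1 per kilobase in WT and 349 in HSKO, ranks 156 and 47, and Sycp3 at 51.5 and 153, ranks 221 and 98. Eml5 was at 32.3 and 88.6, ranks 336 and 158.

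The remaining 5 genes lay between 6.37 per kilobase for Ccna2 and 11.4 for Sfi1 in WT. In HSKO they ran from 18.0 for Ccna2 to 49.3 for Sfi1, with Cenpu at 21.2, Eme1 at 23.0 and Aurka at 28.4. Ccna2, Eme1 and Cenpu differed in WT by less than their spread between libraries, and so did Aurka and Sfi1. The median of all rows with a length was 0.814 per kilobase in WT, so each of the 9 genes lay above it.

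Partners of Aurka and Ccna2 and markers of dividing cells were at or near 0. Cdk1, the kinase of cyclin A and cyclin B, had 0, 0 and 2 reads in WT and 0 in each HSKO library, and Cdk2 had 4, 4 and 3 in WT and 0, 1 and 2 in HSKO. Ccnb1, the mitotic cyclin B1, had 0 reads in all 6 libraries, which allows up to 3 reads in each. Mki67, a marker of cycling cells, had 1, 3 and 0 reads in WT and 0, 0 and 2 in HSKO, while Top2a, another, and Tpx2, the activator of Aurora A, had 1 read each over all libraries. In a library where Ccna2 was counted 50 times, its partner kinase Cdk1 was thus not seen.

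The list of proliferation genes, with the 9 genes left out, had 64 rows, of which 20 were at 0 in all libraries and 56 had at most 5 reads in each. Only 3 were tested, and Kif20a, a kinesin of cytokinesis, was called higher (22.7 ± 6.20 to 50.3 ± 5.58, SD, n = 3, limma adjusted p = 0.00324). Of the 3 proliferation rows tested 1 was thus called, beside 28.5% of all rows tested, and the other rows were below the minimum mean. Ccne2 and Tk1 did not pass (adjusted p = 0.0715 and 0.314). Among 16 genes of the inner kinetochore, 2 were tested and Cenpo was called higher (18.8 ± 6.07 to 40.5 ± 2.38, adjusted p = 0.00527), a call lost with both scalings to total reads, with and without BC071253. Cenpq, which binds Cenpu within the same subcomplex as Cenpo, had 2, 1 and 3 reads in WT and 0 in HSKO. Cenpp, another gene of the inner kinetochore, went the other way, with 1, 2 and 0 reads in WT and 2, 1 and 5 in HSKO.

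**Figure D2:**
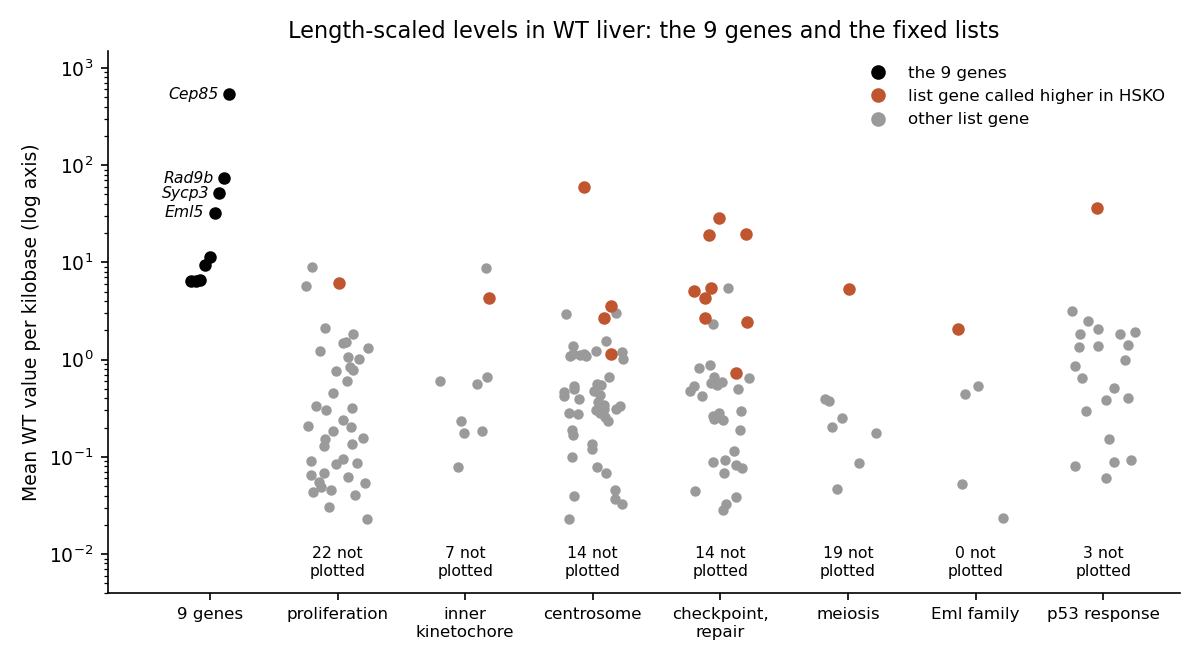
Mean WT value per kilobase of transcript (log axis) of the 9 genes (black) and of each gene of the 7 lists (grey, or orange where limma called it higher in HSKO); genes at 0 in WT or without a length are counted below the points as not plotted. Most list genes lie below the lowest of the 9 genes.

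Among 63 other genes of the centrosome and centriole, 44 had at most 5 reads in every library. Of 5 tested, 4 were called higher, beside 28.5% of all rows tested, and 2 with scaling to total reads. The 4 were Tubgcp6 and Tubgcp4 of the gamma-tubulin ring complex, Cep290 of the ciliary transition zone and Cep250, a linker between centrioles. Of these, 3 passed the minimum mean in WT alone and Cep250 only through HSKO. Tubgcp6 averaged 452 ± 97.4 in WT against 1174 ± 143 (SD, n = 3, adjusted p = 0.000652). Cep85l, the relative of Cep85, had 3, 1 and 4 reads in WT and 0, 2 and 0 in HSKO, and the centrins Cetn2 and Cetn3, to which Sfi1 binds, had at most 8 in any library. Of the other Eml genes, Eml3 alone was tested (6.80 ± 2.15 in WT against 16.4 ± 2.93). It passed the minimum mean only through HSKO, and its call as higher was lost with no filter, with both scalings to total reads, with DESeq2 and without WT replicate 3, HSKO replicate 1 or HSKO replicate 3.

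Of 53 genes of the checkpoint and of recombination repair, 11 were tested and 10 called higher, beside 28.5% of all rows tested. With scaling to total reads 2 were called. Of the 10, 7 had the opposite-strand overlap described below. Rad9a averaged 59.7 ± 17.6 in WT against 145 ± 33.4 (SD, n = 3, adjusted p = 0.00127), and Eme2, the other partner of Mus81, averaged 103 ± 27.2 and 216 ± 25.7 (adjusted p = 0.00247). The Fanconi anaemia genes Fanci and Fanca, the nuclease Slx1b and the helicase Blm were also called. Blm was at 3.50 ± 1.36 in WT and 17.9 ± 0.869 in HSKO, on 38 reads over the HSKO libraries, and passed the minimum mean only through HSKO. Of the 10 called, 8 passed it in WT alone. Partners in the same complexes had few reads. Hus1 and Rad1, the other subunits of the 9-1-1 clamp, had at most 5 reads in any library, Mus81 had 2 reads over all libraries and Slx4 had 0.

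Of 27 meiosis genes, 18 were at 0 in every library, among them Sycp1 and Sycp2, which build the synaptonemal complex with Sycp3. Syce2, a central element gene, was the only one tested and was called higher (8.91 ± 0.317 to 23.9 ± 4.52, SD, n = 3), having passed the minimum mean only through HSKO. Of 10 spermatocyte markers 9 were at 0, and Prm1 had 1 read in 1 library. Among 25 genes of the p53 response, Ddb2 was the only one tested and was higher (80.1 ± 25.6 to 172 ± 12.1, adjusted p = 0.00229), while Cdkn1a, the p53-induced inhibitor of cyclin-dependent kinases, had 0 reads in all 6 libraries.

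Each gene counted once, the 7 lists held 252 rows, of which 194 had at most 5 reads in every library and 24 were tested. Limma called 19 higher and 0 lower, with a median log2 fold change of 1.20 beside 0.07 over all rows tested. Of all rows tested, 28.5% were called higher and 11.6% lower. The limma count was also 0 lower with p unadjusted at 0.05, as was that of DESeq2 and edgeR after adjustment. Of the 24, 18 passed the minimum mean in WT alone, and 14 of these were called higher. The other 6 passed it only through HSKO, so the filter favoured their being higher, and they are part of the counts and of the median. The count called higher was 4 with scaling to total reads, 15 with total reads without BC071253, 19 with edgeR and TMM, 20 with upper quartile scaling and 22 with hepatocyte markers. With total reads, 2 centrosome and 2 repair genes were called and 0 of each other list, so that the calls of Kif20a, Cenpo, Eml3, Syce2 and Ddb2 ended.

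Markers of other cell types were low in both groups. All 7 neutrophil markers and 7 of 8 mast cell and basophil markers were at 0. Kit was the one with reads, at 0 to 1.53 in WT and 0 to 2.66 in HSKO. Lymphocyte markers summed to 1.53 to 3.29 in WT and 0 to 3.99 in HSKO, on few reads. Summed Kupffer cell and macrophage markers were 63.3 to 110 in WT and 52.3 to 87.8 in HSKO. Of these 12 markers 2 were tested, with 1 called lower and 0 higher, beside 11.6% and 28.5% of all rows tested. Endothelial markers summed to 39.5 to 51.3 in WT and 20.4 to 39.5 in HSKO, and stellate cell markers to 44.6 to 45.0 and 16.1 to 32.0. Of the stellate cell markers 1 was tested and was called lower (log2 fold change -1.41). Cholangiocyte markers summed to 13.5 to 17.8 and 7.27 to 17.5, and erythroid markers to 15.3 to 27.0 and 20.4 to 23.9. In none of the 5 classes from Kupffer cells to erythroid cells did the sum of an HSKO library lie above the WT range. Single markers can differ from these sums.

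The size of the difference depended on scaling, its direction did not. Log2 fold changes of the 9 genes were lowest with libraries scaled to total reads, from 0.79 for Eml5 and 0.80 for Ccna2 to 1.56 for Rad9b, and with scaling to hepatocyte markers they were highest, from 2.03 for Ccna2 to 2.83 for Rad9b. The median of all rows tested was shifted by -0.64 and 0.57 in the same scalings. Rad9b had the largest and Eml5 or Ccna2 the smallest change in both. With total reads outside BC071253, a scaling added after the data were seen, Cep85 was at 1.39, Rad9b at 1.74 and Eml5 at 0.98.

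**Figure D3:**
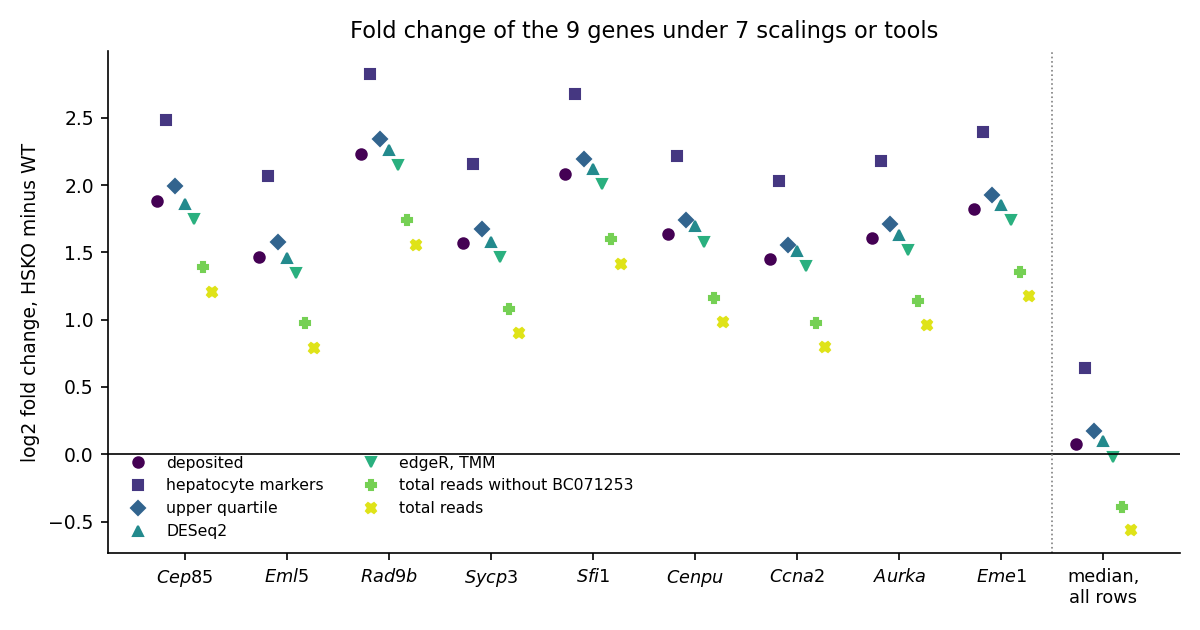
Log2 fold change, HSKO minus WT, of the 9 genes and the median of all rows tested, each under 7 scalings or tools given by symbol. All points of the 9 genes lie above 0, from 0.79 for Eml5 with total reads to 2.83 for Rad9b with hepatocyte markers, while the median of all rows lies on both sides of 0.

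Outside their expression, 6 of the 9 genes shared an arrangement in the genome. In GENCODE M21 on mm10, at least 100 of their exonic bases were also exonic in a gene on the opposite strand. This was also found in 39.2% of the 2331 other rows tested and matched to a gene, and in 77.0% of those called higher. Rad9b shared 1002 bases with Pptc7, Eml5 949 with Zc3h14, Cenpu 1069 with Primpol, Ccna2 510 with Exosc9 and Eme1 221 with Lrrc59, each pair running tail to tail. Sycp3 lay inside Chpt1 and shared 660 bases, 52.2% of its exonic bases. Sfi1 shared 77 bases with the antisense transcript Gm11399 and 167 with Drg1 on its own strand. Cep85 and Aurka shared none on the opposite strand, and Fam210b, which faces the 3′ end of Aurka, ended 440 bases from its last exon.

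**Figure D4:**
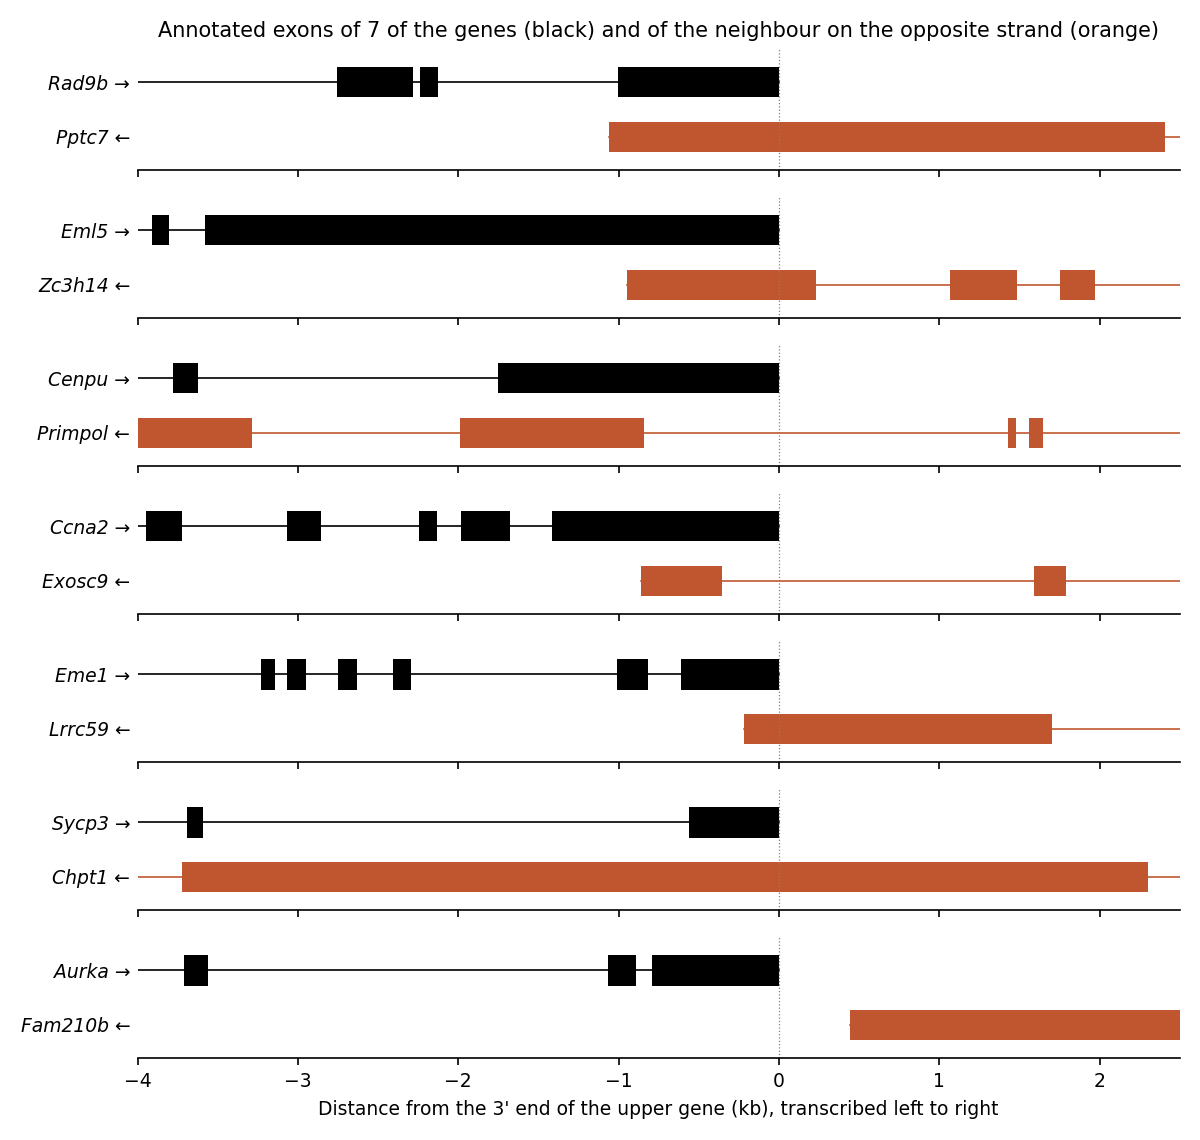
Annotated exons (boxes) of 7 of the genes, black and transcribed left to right, and of the neighbour on the opposite strand, orange, against the distance in kilobases from the 3′ end of the upper gene, to scale. In 6 pairs the exons overlap near that end, and in the Aurka pair they are 440 bases apart.

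The libraries were made with a kit that keeps strand, but the sources used here do not say whether counting used strand, so reads of such pairs cannot be told apart. The rows of the opposite genes held fewer reads than those of the 9 genes in HSKO. Pptc7 had 54 reads over the WT libraries and 54 over HSKO where Rad9b had 784 and 1772, and Zc3h14 had 62 and 50 where Eml5 had 1385 and 1789. Primpol had 9 and 10 where Cenpu had 88 and 132, and Exosc9 had 18 and 10 where Ccna2 had 85 and 114. Chpt1, which makes phosphatidylcholine, had 120 and 33 reads where Sycp3 had 272 and 379, and after scaling it averaged 25.3 ± 8.72 in WT against 15.6 ± 2.93 (SD, n = 3). Lrrc59 had 69 and 28 reads where Eme1 had 70 and 119. The part of antisense reads in the values of the 9 genes was not tested.

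The same arrangement was counted over all rows tested that matched 1 annotated gene, 2340 of 2750, with the 9 genes left out, by a minimum of 100 bases set after the data were seen. It was found in 77.0% of 564 rows called higher, 28.6% of 1471 called neither, 19.6% of 296 called lower and 19.3% of all 21894 protein-coding genes. The 913 rows with such an overlap had a median log2 fold change of 0.76, and 47.5% of them were called higher and 6.35% lower. The 1418 rows without it had a median of -0.31, with 9.17% called higher and 16.8% lower. WT replicate 3, which had the lowest deposited WT value for each of the 9 genes, was also lowest in 64.4% of rows with the overlap and in 29.1% of those without. Of the 19 called list genes, 15 had it, Cenpo with 1632 bases and Eme2 with 1694 among them. Blm and Syce2 had 0 bases, as had Cep85 and Aurka.

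**Figure D5:**
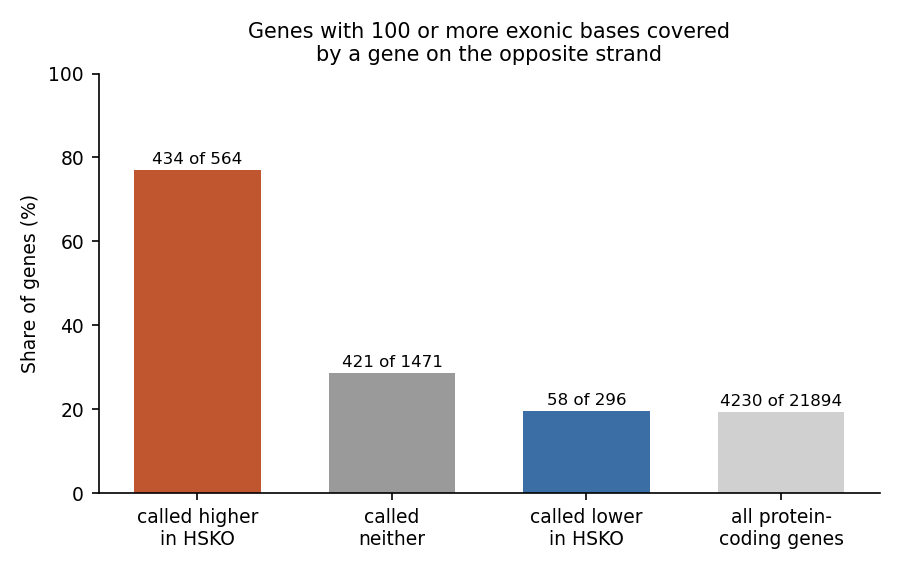
Share of rows, in percent, with at least 100 exonic bases covered by exons of a gene on the opposite strand, for rows called higher, neither or lower in HSKO by limma with the 9 genes left out, and for all protein-coding genes; numbers above the bars are rows. The bar of rows called higher stands at 77.0%, the others between 19.3% and 28.6%.

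Read sharing through similar sequence was also measured, between the longest transcripts of each gene in GENCODE M21, a coding one where there was one. The share of 31-base windows of the transcript that occur, on either strand, in a transcript of another gene was 41.6% for Rad9b, 34.9% for Cenpu and 30.9% for Sycp3, between 9.78% and 12.1% for Eme1, Ccna2, Sfi1 and Eml5, 0.373% for Aurka and 0% for Cep85. The median of 21901 protein-coding genes was 0.961%. Windows in the opposite-strand overlaps are part of these shares. Rad9b also held a run of 23 identical bases, where the median gene's longest was 7. Cep85, the row with the highest level, thus had no shared window in this search and no opposite-strand exon in this annotation. Other isoforms and sequence outside the annotation were not searched. BC071253 was not matched by name, so sharing with that row was not tested.

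The rows most like the mean profile of the 9 genes over the 6 libraries, among 683 rows with a mean of at least 50, were B3gat2, Stk25, Atg7, Mettl23, Fdft1 and AK209396, with Pearson r from 0.999 to 0.996. B3gat2 averaged 287 ± 47.6 in WT against 700.1 ± 40.1 (SD, n = 3), and Fdft1, squalene synthase, averaged 82.7 ± 12.8 and 213 ± 30.9. A value of r over 0.95 was reached by 239 of the 683 rows, and these correlations share the 2 groups and their size factors. BC071253 had an r of 0.873, Alb of -0.72 and Fabp1, which encodes a fatty acid carrier of hepatocytes, of -0.93.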

How the data were processed

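Liver mRNA of 3 HSKO and 3 WT samples was sequenced with a stranded kit per the labels' protocols. The deposited values are a signal, which is reads over a size factor of the library. FastQC 0.11.3, Bowtie, RSEM 1.2.9, DESeq 1.16.0 and mm10 are named, without their roles, per the submitters' processing notes. The annotation and the strand setting of the counting are not given in these sources. Reads of overlapping genes could not be separated, and 712 of 29981 rows carry more than 1 gene name.

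Dividing by what 1 read was worth in a library recovered whole reads for 100% of values (tolerance 0.001). Counts of 0 allow up to 3 reads, and this limit covers counting error only. The test was limma 3.58.1 in R 4.3.3 with a trend on log2(value + 1), 2-sided, over the 2750 rows whose mean reached 10, with Benjamini-Hochberg adjustment at 0.05, and was tested on simulated data. Adjusted p-values are from limma. DESeq2 1.42.0 and edgeR 4.0.16 were run on the recovered reads and called 687 and 731 rows higher and 182 and 456 lower. The 9 genes and all lists were chosen with earlier results of these data known. Genes named are the 9, fixed partners and reference rows, the highest or first called members of each list, and the 6 rows of most similar profile. Genome positions, lengths and overlaps are from GENCODE M21, and promoters from RefSeq. Other pseudocounts, filters, scalings and tools, a replicate block and leaving out each library were tried.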

Additional observations from a re-analysis of the deposited data

How the results depend on the processing

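The 9 genes were higher in HSKO and called under each of the 17 or 18 alternatives tried for them. Since the same contrast in the same libraries chose them, nothing is read from these repeated calls. Rows called higher and lower, 783 and 320 of 2750 tested, were 391 and 118 of 688 tested with a minimum mean of 50. The median log2 fold change of those 688 rows was 0.88, beside 0.07 over the 2750. The counts were 221 and 1044 with scaling to total reads and 429 and 913 with total reads without BC071253. Rows called lower were 211 of 13807 tested with no filter, 208 with upper quartile scaling, 21 with scaling to hepatocyte markers and 182 with DESeq2. Leaving out 1 library at a time gave 581 to 822 higher and 157 to 313 lower, with 159 lower without WT replicate 2 and 157 without WT replicate 3. With the replicate number as a block 751 were higher and 269 lower. Correlations of same-numbered libraries were -0.026, -0.027 and -0.021, so no pairing by number was detected, which does not exclude one. List genes called higher, 19, were 6 with a minimum mean of 50 and 4 with total reads. The share of rows called higher with an opposite-strand overlap, 77.0%, was 87.0% with a minimum mean of 50, 81.4% with total reads, 81.8% with total reads without BC071253, 67.4% with hepatocyte markers, 80.9% for a minimum of 1 base and 53.5% for 500 bases. The cause of these shifts was not tested. Depth limits genes at a few reads, for which no difference was detectable.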
